A study of Drosophila melanogaster with 17 samples.

Results

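Gli encodes gliotactin, a transmembrane protein of the tricellular junctions, the points where the corners of 3 cells meet in an epithelium with septate junctions. It was taken by its gene symbol in the platform annotation and was 1 of 8938 genes named on the arrays. It was chosen by its signal on these arrays, as the tricellular junction gene with the largest rise in the Mdr65 null brains and a smaller one in the moody null brains. Its own levels are given below as a description with no test.

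RNA from whole brains of adult Drosophila melanogaster was measured on 17 Affymetrix arrays, each with amplified RNA of 4 pooled brains from flies of both sexes. C17 (3 arrays) is a null line for moody, which encodes a G protein-coupled receptor made by surface glia. PMdr65 (3 arrays) is a null line for Mdr65, whose product pumps drugs out of the brain at the same cells. The controls were UAS_control (3 arrays), WT_old (5 arrays) and WT_new (3 arrays). UAS_control is a UAS-Mdr65-RNAi line for which the labels name no driver, and the series describes its genetic background as similar to that of the mutants. WT_old and WT_new are Canton S wild type. Per the series' design, WT_new was processed on another day than both mutants, so that day and genotype cannot be told apart in that comparison, and WT_old was included to find batch effects. The labels do not name the days on which UAS_control and WT_old were processed. Each null allele was measured in 1 line, so that the allele and the rest of that line's genome cannot be told apart. The ages of the flies are not given in the labels. The labels do not tell whether arrays within a group stem from separate cultures, so the p-values below measure only the spread between these arrays.

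Gliotactin belongs to a family of cholinesterase-like adhesion proteins that lack esterase activity. In flies it was first known from peripheral glia, where it is needed for the barrier between nerve and haemolymph, and it also seals epithelia of the embryo and trachea. In wing epithelia an excess of the protein spreads away from the cell corners and disturbs the tissue, and its amount is held down by endocytosis. The blood-brain barrier of the fly is a sheet of surface glia, whose subperineurial cells are sealed to each other by septate junctions and express moody and Mdr65.

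In each mutant the signal of its own gene was far below that of the controls. The log2 signal of moody was 2.30, 2.10 and 2.12 on the C17 arrays, against control group means of 9.77 to 10.03. Mdr65 was at 4.70, 4.72 and 4.65 on the PMdr65 arrays, against control group means of 9.80 to 10.78. The neuronal markers elav, nSyb, brp and others kept high mean log2 levels on every array (9 genes, 11.85 to 12.03). High levels of eye genes marked UAS_control array 2 and WT_new array 3, at mean log2 levels of 10.66 and 10.77 over 5 genes, and the other UAS_control arrays were also high in them. Results that rest on UAS_control array 2 and WT_new array 3 are given with and without those 2 arrays.

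Gli was strongly expressed in Mdr65 null brains, at an intermediate level in moody null brains and dim in all 3 control groups. Its log2 signal on the PMdr65 arrays was 9.85, 9.57 and 9.80, a mean of 9.74 ± 0.15 (SD, n = 3). On the C17 arrays it was 7.29, 7.69 and 7.65, a mean of 7.54 ± 0.22 (n = 3). It was 5.44, 6.36 and 5.37 in UAS_control (5.72 ± 0.55, n = 3). In WT_old it was 6.04, 4.99, 4.51, 5.92 and 5.07 (5.30 ± 0.65, n = 5), and in WT_new 4.00, 5.16 and 4.95 (4.70 ± 0.62, n = 3). No array of either mutant overlapped with a control array. The lowest PMdr65 array stood 3.22 log2 units above the highest control array, the lowest C17 array stood 0.93 above it, and 1.88 log2 units separated the nearest arrays of C17 and PMdr65. The pooled SD within groups was 0.52.

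On the linear scale the Gli signal was 761.3 to 920.7 in PMdr65 and 156.6 to 207.0 in C17, against 15.9 to 81.9 on the 11 control arrays. PMdr65 exceeded UAS_control by 4.02 on the log2 scale (standard error 0.33), WT_old by 4.44 (0.31) and WT_new by 5.04 (0.37), which are 16.2-, 21.6- and 32.8-fold. C17 exceeded UAS_control by 1.82 (standard error 0.34), WT_old by 2.24 (0.32) and WT_new by 2.84 (0.38), or 3.53-, 4.72- and 7.17-fold. The C17 minus PMdr65 difference was -2.20 on the log2 scale, so Gli was 4.58-fold lower in C17. The difference from the controls in C17 was thus 45.3%, 50.5% and 56.4% of that in PMdr65 on the log2 scale, against UAS_control, WT_old and WT_new in turn.

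Among the control groups the order of Gli was UAS_control, WT_old and WT_new, and neighbours in this order overlapped. UAS_control was 0.42 above WT_old and WT_old was 0.60 above WT_new, both with overlapping arrays. UAS_control and WT_new differed by 1.02, with 0.21 log2 units between their nearest arrays. Leaving out UAS_control array 2 and WT_new array 3, the distance of UAS_control from WT_old was 0.10. The same omission gave PMdr65 differences of 4.33 from UAS_control and 5.16 from WT_new, and C17 differences of 2.14 and 2.96.

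Control levels of Gli were close to the dim end of the arrays. The probe sets that the series matrix left out had 90th percentiles of 5.48 to 5.77 on the 17 arrays. Gli lay below its array's 90th percentile on 8 of 11 control arrays and above it on all 6 mutant arrays. It lay below the median of these probe sets (3.96 to 4.21) on 1 of the 11 control arrays. Control values of this size can hold background signal, so the folds are approximate. Among the 8938 genes the rise of Gli over UAS_control, WT_old and WT_new ranked 4, 5 and 2 in PMdr65, and 25, 26 and 10 in C17. By the smallest of the 3 differences, Gli was in place 3 in PMdr65 after the potassium channel gene sand (4.73) and lncRNA:CR32368 (4.17), and Sting came next at 3.08. In C17 it was in place 11, between CG13130 (1.86) and CG4476 (1.80).

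**Figure D1:**
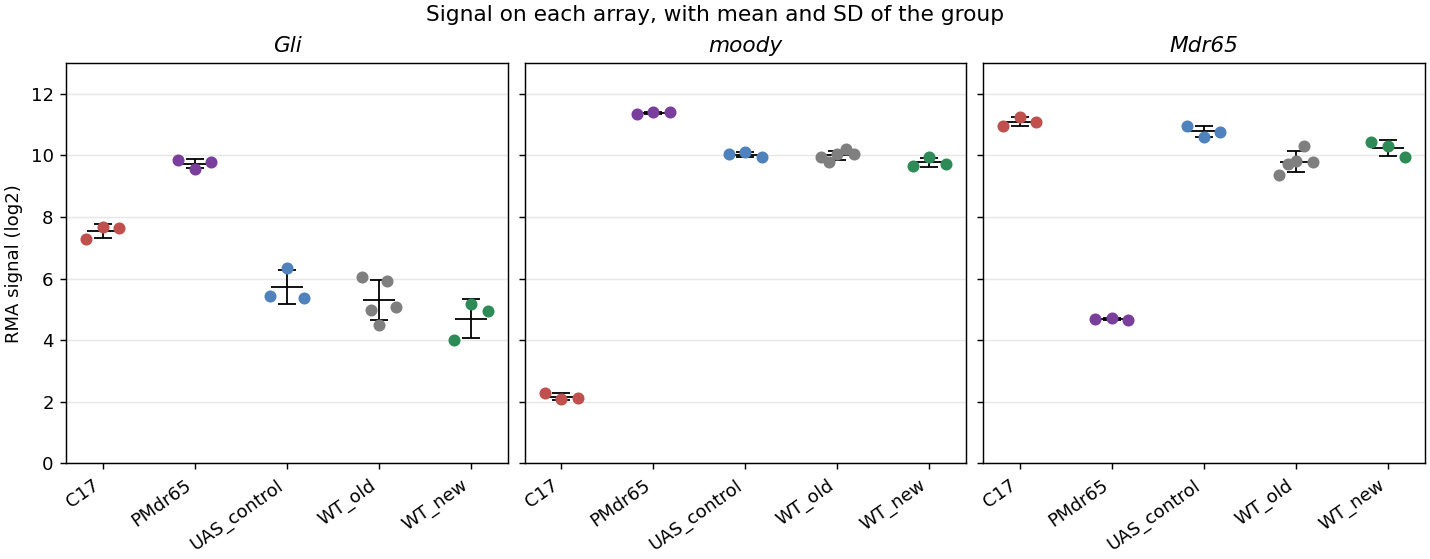
Log2 RMA signal of Gli, moody and Mdr65 (vertical axis) on each of the 17 arrays by group (horizontal axis); points are arrays, long bars are group means and whiskers are SD. The 3 PMdr65 arrays lie between 9.57 and 9.85 for Gli and the 3 C17 arrays between 7.29 and 7.69, all above the 11 control arrays, while moody is at the floor in C17 and Mdr65 is low in PMdr65.

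A gene was called in a mutant when limma gave it an adjusted p under 0.05 in the same direction against all 3 control groups. By this rule 5.87% of all genes were called higher in PMdr65 and 3.18% lower, and in C17 4.37% were called higher and 2.27% lower. The list counts below leave Gli out. Some counts at an unadjusted p under 0.05 are added. No share of all genes is given for that threshold, so whether those counts are unusual cannot be judged.

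Limma called 0 of the other 3 tricellular junction genes in either mutant, beside 5.87% of genes higher in PMdr65. At an unadjusted p under 0.05 against all 3 control groups, bark was higher in PMdr65 and 0 genes passed in C17. The 5.87% does not apply to this threshold. The gene bark (also called anakonda) encodes the protein that brings gliotactin to the cell corners. Its log2 signal was 6.94, 7.04 and 7.25 in PMdr65 and 6.62, 6.46 and 6.62 in C17, against 5.95 to 7.15 on the control arrays. The PMdr65 mean was 0.55 to 0.65 above the 3 control means, with overlapping arrays (limma, highest adjusted p = 0.074). With 1 array left out bark stayed uncalled in 16 of 17 fits (limma, highest adjusted p = 0.0189 to 0.205). It also stayed uncalled under all 8 other settings (0.0573 to 0.163). The exception, at 0.019, was the fit without WT_old array 1, which had the highest bark signal of the controls. In C17 bark was 0.04 to 0.14 above the 3 control means (limma, highest adjusted p = 0.912). M6, a proteolipid protein that works with gliotactin and bark at the corners, averaged 8.97 in C17 and 9.17 in PMdr65, and 8.93, 9.17 and 8.86 in UAS_control, WT_old and WT_new. Its PMdr65 mean differed by 0.24, 0.00 and 0.31 from these. The adhesion protein gene sdk, whose product lies at corners of the adherens junctions, averaged 7.66 in C17 and 7.73 in PMdr65, and 7.37 to 7.64 in the control groups. The largest PMdr65 difference of these 3 genes from a control group was 0.65, where those of Gli were 4.02 to 5.04. Gli was chosen as the gene of this list with the largest rise, so this order was fixed by the choice.

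The bicellular septate junctions run between neighbouring cells up to the corners where gliotactin sits, and 21 of their 24 listed genes were measured. In PMdr65 limma called 11 of the 21 higher (52.4%) and 0 lower, against 5.87% higher and 3.18% lower among all genes. They were cora, Nrx-IV, Cont, Nrg, Lac, kune, pck, Tsf2, cold, crok and crim, and all 3 PMdr65 arrays lay above all 11 control arrays in each, where 7.51% of all genes did so. In 0 of the 21 genes did they lie below all control arrays, as they did in 4.77% of all genes. The median difference of the 21 genes was 0.60 from UAS_control, 0.44 from WT_old and 0.64 from WT_new, beside 0.01, 0.00 and 0.01 for all genes. These lists were chosen with earlier results of these arrays known, so their direction is not independent evidence.

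Among the called members, cold, a small glycosylphosphatidylinositol-anchored protein needed to form the junctions, was at 9.88, 9.83 and 9.86 in PMdr65, against 8.28 to 9.13 on the control arrays. It rose by 0.91 to 1.51 (limma, highest adjusted p = 4.62e-06). Lac, an immunoglobulin-domain adhesion protein, was at 10.86, 10.87 and 10.95 in PMdr65 and 9.58 to 10.32 in the controls, a rise of 0.83 to 1.20 (limma, highest adjusted p = 3.71e-04). The claudin gene kune was at 9.01, 9.10 and 9.19 in PMdr65, against 8.29 to 8.54 in the controls, and rose by 0.60 to 0.68 (limma, highest adjusted p = 1.61e-04). In all 3 genes the PMdr65 arrays were clear of the controls, by far less than those of Gli.

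The scaffold gene cora, a FERM-domain protein of the cytoplasmic side, averaged 12.08 ± 0.04 in PMdr65, against 11.55, 11.64 and 11.25 in UAS_control, WT_old and WT_new. Cont, an adhesion protein of the junction core, averaged 9.51 ± 0.06 in PMdr65, against 8.55 to 8.93 in the control groups. Nrx-IV, the neurexin that binds Cont and cora, was at 9.86, 9.93 and 9.79 in PMdr65 and 9.05 to 9.58 in the controls. Nrg, the neuroglian of the same core, averaged 10.97 ± 0.06 in PMdr65, against 10.42 to 10.48 in the control groups. A second Nrg probe set rose by 0.77 to 0.94 in PMdr65, whereas a further one differed from the controls by -0.09 to -0.20 and was not called (limma, highest adjusted p = 0.476), so the probe sets of Nrg disagreed.

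In C17 limma called 4 of the 21 bicellular genes higher and 0 lower, against 4.37% and 2.27% of all genes. They were cold (9.59, 9.57 and 9.63, a rise of 0.65 to 1.25), cora (11.89, 11.88 and 11.85, a rise of 0.23 to 0.62), sinu and kune. For cold and cora the highest adjusted p by limma was 4.84e-05 and 0.011. The claudin gene sinu rose by 0.22 to 0.75 with a highest adjusted p of 0.035 by limma. The kune arrays at 8.50, 8.81 and 8.89 overlapped with the controls, and its highest adjusted p by limma was 0.0496. The C17 calls of kune and sinu were fragile. With 1 array left out, kune stayed called in 2 of 17 fits (limma, highest adjusted p = 0.00362 to 0.221) and sinu in 11 of 17 (0.0222 to 0.139). Under 9 other settings kune stayed called in 2 and sinu in 6. The C17 arrays lay above all control arrays in 4 of the 21 genes and below them in 0, against 7.13% and 3.82% of all genes. Leaving out C17 array 2 or 3, or WT_old array 2, gave a count of 2, as did the unfiltered matrix and a repeated quantile normalization. It was 3 without WT_new array 3 and UAS_control array 2, where the PMdr65 count was still 11.

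Between the mutants, limma called 0 of the 21 bicellular genes higher in C17 than in PMdr65 and called 4 lower there, against 3.71% and 3.23% of all genes. The C17 minus PMdr65 difference on the log2 scale was -0.69 for Lac (limma, adjusted p = 0.011), -0.50 for Nrg (2.05e-04), -0.36 for kune (0.023) and -0.36 for Nrx-IV (0.0071). For cold and cora it was -0.26 and -0.20 and was not called (limma, adjusted p = 0.107 and 0.083). Across the 17 arrays the 21 genes had a median Pearson r of 0.70 with Gli, from -0.40 for hoka to 0.90 for kune, beside a median of 0.004 over all genes. The arrays share their groups, so these correlations describe the group pattern and carry no p. The genes called higher may lie in surface glia or in other cells of the whole brain. There, more cells of a type and more RNA per cell cannot be told apart.

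**Figure D2:**
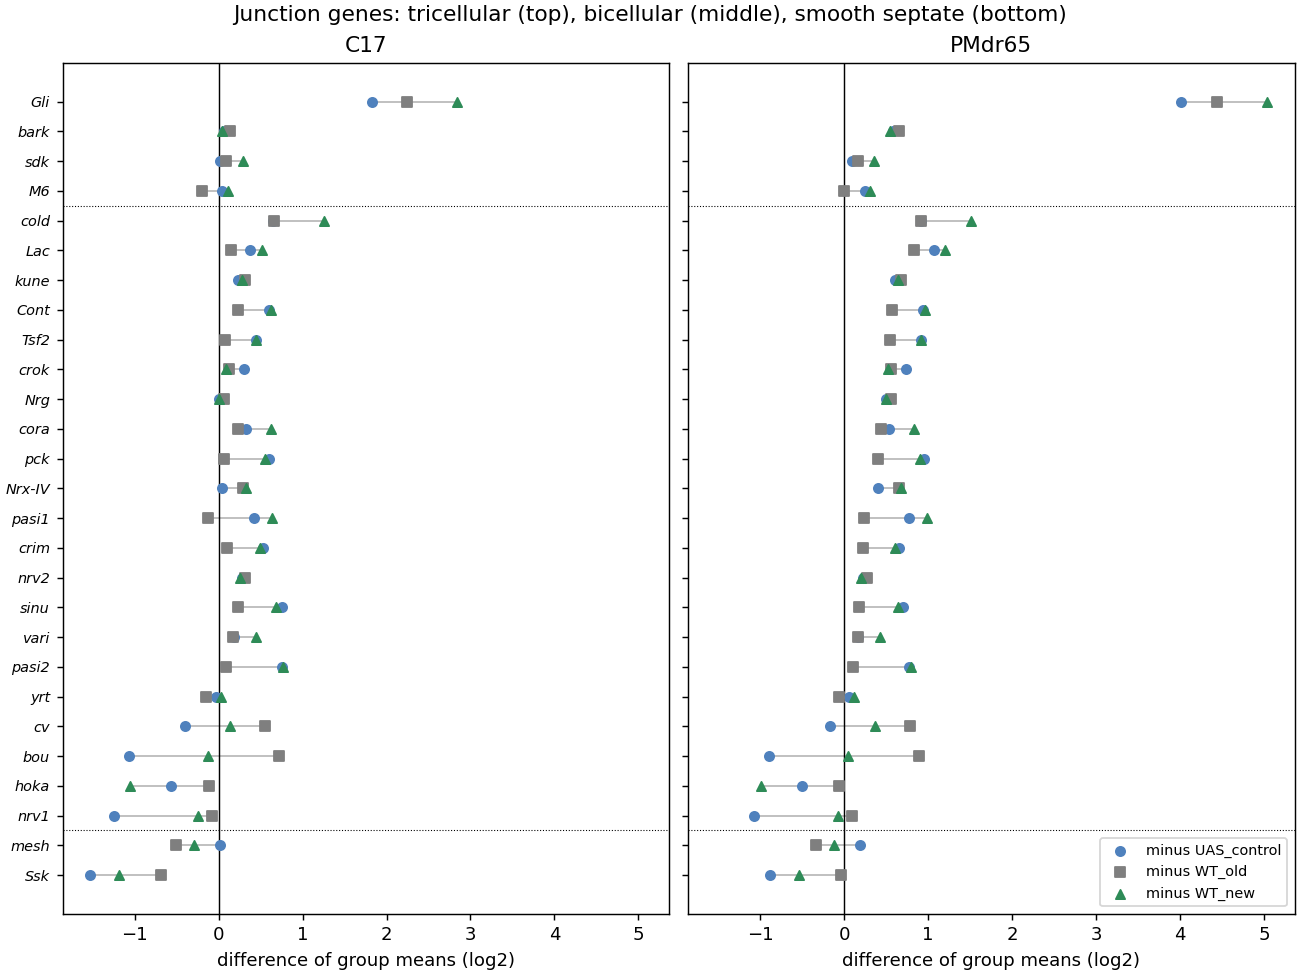
Differences of group means (log2, horizontal axis) of C17 (left) and PMdr65 (right) from each control group for the measured genes of the tricellular, bicellular and smooth septate junctions (vertical axis); each symbol is 1 control group. Gli, chosen for its rise, lies 1.82 to 2.84 above the controls in C17 and 4.02 to 5.04 in PMdr65, beyond all other genes drawn. The 11 bicellular genes called in PMdr65 lie to the right of 0 against all 3 control groups.

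The smooth septate junction genes act in gut epithelia, and 2 of 3 were measured. Ssk was at 7.69, 7.72 and 7.98 in C17, against 8.11 to 9.57 on the control arrays, and fell by 0.68 to 1.53 (limma, highest adjusted p = 0.0053). In PMdr65 it was at 8.33, 8.43 and 8.57 and was not called (limma, highest adjusted p = 0.879). The other measured gene, mesh, was called in neither mutant.

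Polarity and scaffold proteins such as Dlg, which binds the tail of gliotactin, hold the junctions in place, and 15 of 16 listed genes were measured. Limma called 1 of the 15 higher in each mutant (6.67%), a share near the 4.37% of all genes in C17 and 5.87% in PMdr65. It was shg in both, which encodes E-cadherin of the adherens junctions. Its log2 signal was 7.09, 7.07 and 7.01 in C17 and had a median of 7.01 and a highest value of 7.15 in PMdr65, clear of the controls, against 6.39 to 6.90 in the controls. The rise was 0.22 to 0.55 in C17 and 0.22 to 0.55 in PMdr65 (limma, highest adjusted p = 0.026 and 0.020). The C17 call was lost without any one of C17 arrays 1 and 2 and WT_old arrays 2 and 3, at adjusted p up to 0.105, and the PMdr65 call without PMdr65 array 3, at 0.113. The gene of the gliotactin partner, dlg1, was not called in C17 or PMdr65 (limma, highest adjusted p = 0.812 and 0.662).

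Signals of the BMP and JNK pathways and endocytosis are known from wing epithelia to bear on gliotactin levels, and 18 of 24 such genes were measured. In C17 limma called 0 of them, and 0 at an unadjusted p under 0.05 against all 3 control groups. In PMdr65 it called 1 of the 18 lower, where 3.18% of all genes were, so the count says nothing particular of the list. It was Med, the co-Smad that carries BMP signals to the nucleus. The Med signal was 6.10, 6.26 and 6.18 in PMdr65, all below the 6.53 to 6.96 of the control arrays, and it fell by 0.49 to 0.69 (limma, highest adjusted p = 0.0019). In C17 Med was at 6.58, 6.54 and 6.31, within reach of the controls. Its Pearson r with Gli over the 17 arrays was -0.91. The BMP ligand gene dpp and the inhibitory Smad gene Dad were not called in PMdr65 (limma, highest adjusted p = 0.075 and 0.057). Their log2 signals were 6.19, 6.32 and 6.56 for dpp, against 4.20 to 6.30 in the controls, and 10.34, 10.42 and 10.44 for Dad, against 8.67 to 10.11. All 3 PMdr65 arrays of Dad thus lay above the controls.

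Of the 6 other cholinesterase-like adhesion genes, limma called 0 in PMdr65, with 0 at an unadjusted p under 0.05, and 2 higher in C17, where 5.87% and 4.37% of all genes were called higher. Nlg1, a neuroligin, was at 6.02, 5.75 and 5.39 in C17 and 3.74, 3.37 and 3.57 in PMdr65, against 3.11 to 3.57 on the control arrays. It rose by 2.23 to 2.45 in C17 (limma, highest adjusted p = 3.06e-08), and the effect in C17 exceeded that in PMdr65 by 2.17 (limma, adjusted p = 5.48e-08). In the controls and in PMdr65 its signal lay below the medians of the probe sets left out of the series matrix (3.96 to 4.21), so the sizes of these differences are approximate. Nlg3, another neuroligin, was at 10.40, 10.53 and 10.38 in C17, against 9.68 to 10.10 in the controls (limma, highest adjusted p = 3.43e-04), but its 3 other probe sets were not called (limma, highest adjusted p = 0.603 to 0.984).

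Nlg2, Nlg4, the neuronal adhesion gene Nrt and Glt were called in neither mutant. Glt averaged 7.48 in C17 and 7.16 in PMdr65, and 9.42, 6.42 and 8.84 in UAS_control, WT_old and WT_new, with a range of 5.61 to 10.96 over the control arrays. The 6 fat body markers had array means of 8.80 to 9.49 in C17 and 9.32 to 10.73 in PMdr65, and 9.81 to 11.48, 6.41 to 7.44 and 9.38 to 11.03 in UAS_control, WT_old and WT_new, and their part in the Glt levels was not tested. Among 11 of 17 listed carboxylesterase enzymes, 1 was called higher in PMdr65, beside 5.87% of all genes, and 0 in C17. It was Est-Q, higher by 1.01 to 1.37 (limma, highest adjusted p = 0.0013). Its signal was 7.45, 8.25 and 7.80 in PMdr65 and 6.96, 6.97 and 7.09 in C17, against 6.09 to 7.02 in the controls.

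Gli, chosen for its large rise, lies on chromosome arm 2L. Its 10 nearest measured genes on either side had no difference as large as that of Gli, a contrast largely set by that choice. Of these 20 genes limma called 1 higher in C17 (beside 4.37% of all genes) and 2 higher in PMdr65 (beside 5.87%), and 0 lower in either (beside 2.27% in C17 and 3.18% in PMdr65). The nearest measured neighbours in the annotation are Mtr4, an RNA helicase of the nuclear exosome pathway, and CG3793. Mtr4 was at 7.25, 7.46 and 7.11 in C17, against 6.52 to 7.16 on the control arrays, with a rise of 0.36 to 0.45 (limma, highest adjusted p = 0.038). CG3793 was at 10.22, 10.13 and 10.21 in PMdr65, against 9.83 to 10.17 in the controls, with a rise of 0.20 to 0.22 (limma, highest adjusted p = 0.047). Both overlapped with the controls. The remaining call, lace, a subunit of serine palmitoyltransferase, was at 8.48, 8.69 and 8.77 in PMdr65 and 7.97 to 8.41 in the controls (limma, highest adjusted p = 0.0087).

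Over the 20 neighbours the differences from a control group ran from -0.50 to 1.17 in C17 and from -0.82 to 0.93 in PMdr65. The ends were set by CycE, ND-B17 and CG18063. The count of called neighbours in C17 was 0 without any one of C17 arrays 1 and 2, UAS_control array 1 or any WT_old array, and 2 without WT_new array 1 or PMdr65 array 2. In PMdr65 it was 1 to 3 when single arrays were left out. These neighbour counts therefore rest on single arrays, and they lay near the share of all genes called.

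**Figure D3:**
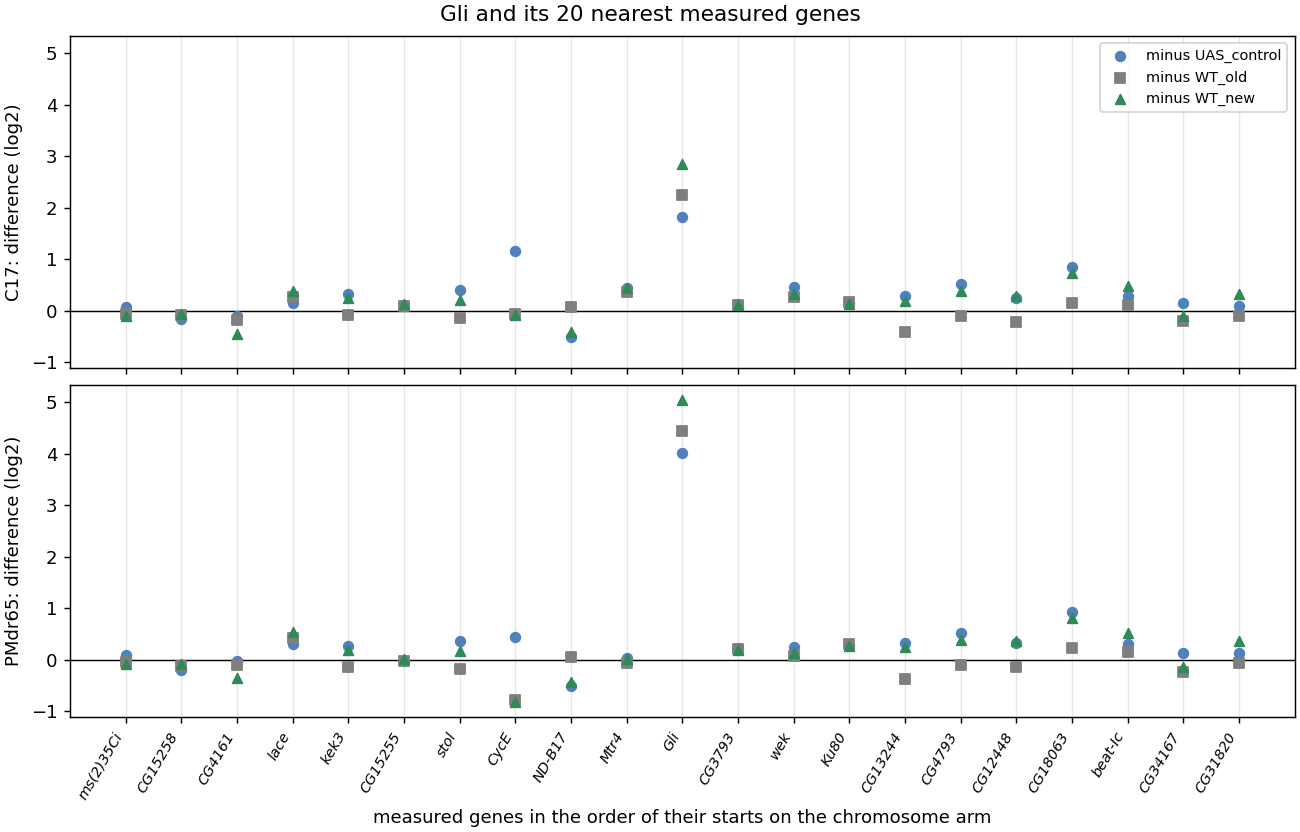
Differences of group means (log2, vertical axis) of C17 (top) and PMdr65 (bottom) from each control group for Gli and its 10 nearest measured genes on either side, in the order of their starts on arm 2L (horizontal axis); each symbol is 1 control group. Gli, chosen for its rise, lies at 1.82 to 2.84 in C17 and 4.02 to 5.04 in PMdr65. The neighbours lie between -0.50 and 1.17 in C17 and between -0.82 and 0.93 in PMdr65. This contrast was largely set by the choice of Gli.

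Genes whose pattern over the 17 arrays was most like that of Gli were sought among 1026 genes with group means spanning at least 1 log2 unit. The 8 with the highest Pearson r were frm (0.957), CG11159 (0.938), Cyp9h1 (0.932), CG2310 (0.931), Hydr2 (0.929), Agpat2 (0.925), Tsf1 (0.916) and CG32354 (0.905). They were picked for this likeness, so their levels carry no test. The gene frm had log2 signals of 8.57, 8.13 and 8.55 in PMdr65 and 7.78, 7.92 and 8.03 in C17, against 6.90 to 7.39 in the controls. Cyp9h1, a cytochrome P450, was at 8.29, 8.55 and 8.06 in PMdr65 and 6.70, 7.05 and 6.80 in C17, against 4.80 to 6.23 in the controls, which made it the gene of the 8 with the widest span. Agpat2, an acyltransferase of phospholipid synthesis, was at 7.74, 7.71 and 7.93 in PMdr65 and 7.63, 7.54 and 7.61 in C17, against 6.55 to 7.26 in the controls. Tsf1, the iron carrier transferrin, averaged 12.12 in PMdr65 and 11.51 in C17, where it overlapped with the controls at 10.77 to 11.55.

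The r values rest largely on the distance between groups. Without the PMdr65 arrays r was 0.90 for frm, 0.92 for Agpat2, 0.79 for Cyp9h1 and 0.64 for CG32354, and within the 11 control arrays it was 0.56, 0.81, 0.26 and -0.002. Only 2 of the 8 remained among the highest 8 when PMdr65 was left out, and 3 when ranks were used in place of signals. The 8 genes lie on 5 chromosome arms, with 2 on 2L. The gene in the ninth place, sand, was named after its values were seen and had r = 0.90. It was at 10.14, 9.59 and 9.75 in PMdr65 and 8.37, 9.33 and 6.02 in C17, against 4.79 to 5.23 in the controls, so that its C17 arrays spread far more widely than those of Gli.

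Among the same 1026 genes the lowest r values were those of Cyp28d1 (-0.93), GstD9 (-0.92), Ugt35B1 (-0.92) and Myo28B1 (-0.86). GstD9, a glutathione transferase, was at 9.48, 9.71 and 9.78 in PMdr65 and 9.83, 9.67 and 9.89 in C17, against 10.33 to 10.92 in the controls. Ugt35B1, a glycosyl transferase of detoxification, averaged 9.52 in PMdr65 and 10.01 in C17, against 11.07 to 11.49 in the control groups. GstD9 kept r = -0.92 without the PMdr65 arrays and -0.73 within the controls, whereas for Ugt35B1 these were -0.82 and -0.20. Over the control arrays the r of GstD9 thus stayed strong and that of Ugt35B1 was weak. The GstD9 means of 10.37, 10.54 and 10.81 in UAS_control, WT_old and WT_new ran in the reverse order of Gli. Differences between the control groups are therefore part of its r there.

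**Figure D4:**
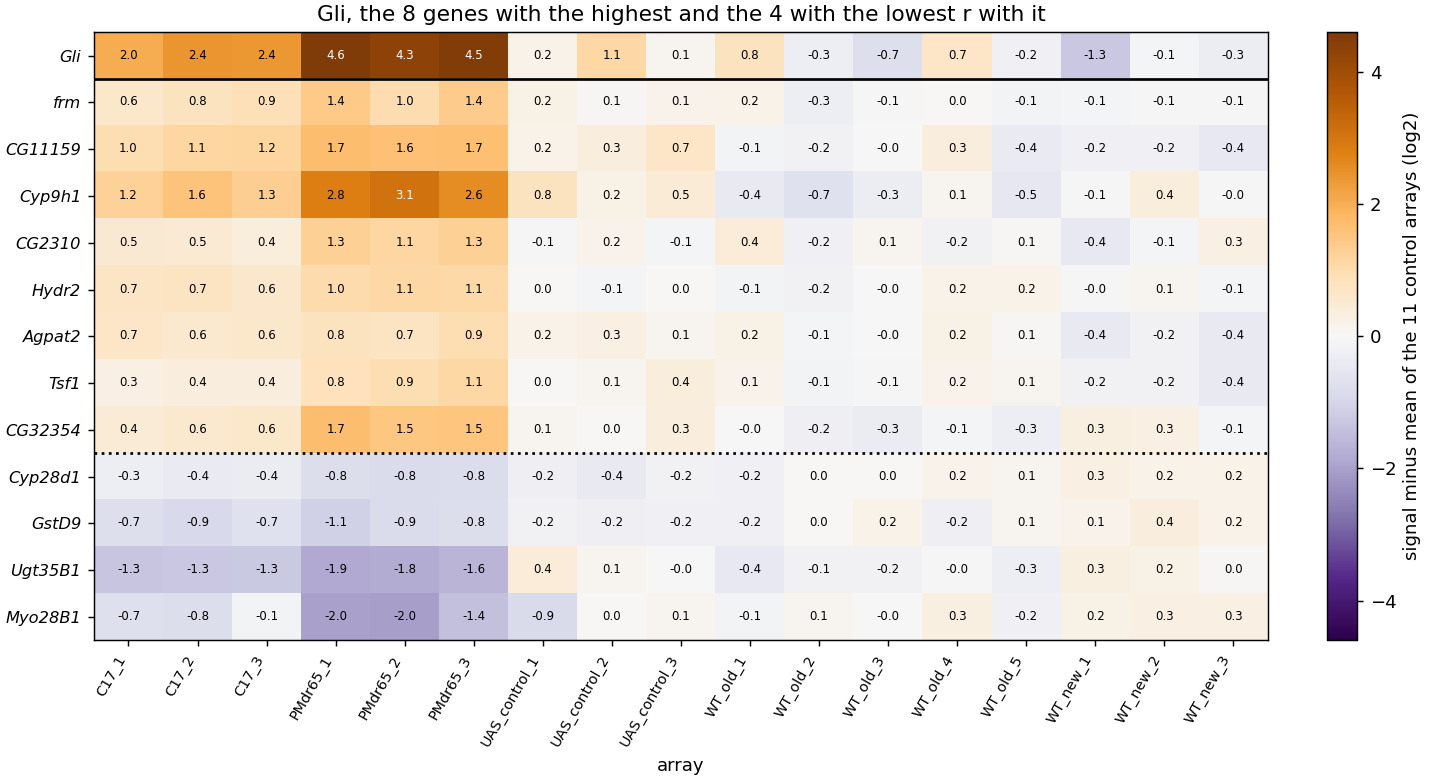
Signal of Gli, of the 8 genes with the highest Pearson r with it and of the 4 with the lowest (vertical axis) on each array (horizontal axis), as the log2 difference from the mean of the 11 control arrays; colour and number give this difference. Gli reaches 4.3 to 4.6 in PMdr65 and 2.0 to 2.4 in C17. The 8 genes above the dotted line are higher on all PMdr65 arrays, and the 4 below it are lower there. Both sets come from the 1026 genes with group means spanning at least 1 log2 unit.

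Genes of the surface glia outside the junctions were measured for all 14 members, among them moody and Mdr65. In PMdr65 limma called 6 higher and 1 lower, against 5.87% and 3.18% of all genes, and in C17 4 higher and 1 lower, against 4.37% and 2.27%. Those higher in PMdr65 were moody, CG10226, LpR1, LpR2, PRL-1 and ltl, and the lower one was Mdr65. In C17 they were CG3168, LpR1, PRL-1 and ltl, and moody was lower. A second LpR1 probe set rose by 0.18 to 0.31 in PMdr65 and was not called (limma, highest adjusted p = 0.288). In C17 this probe set was called higher (limma, highest adjusted p = 0.032). Without moody and Mdr65, the genes mutated in these lines, limma called 5 of 12 higher in PMdr65 and 4 of 12 in C17, and 0 lower in both. The leucine-rich repeat gene ltl was at 10.22, 10.15 and 10.31 in PMdr65 and 9.98, 10.11 and 10.14 in C17, against 8.60 to 9.48 in the controls. The phosphatase gene PRL-1 averaged 10.99 in PMdr65 and 11.16 in C17, against 10.42 to 10.71 in the control groups. CG10226, a transporter gene of the same family as Mdr65, was at 10.86, 10.83 and 10.89 in PMdr65, against 8.14 to 10.01 in the controls, a rise of 1.07 to 2.18 (limma, highest adjusted p = 4.05e-04).

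The mean log2 level of these 12 genes, a list shortened after the data were seen, was 9.98 to 10.08 on the C17 arrays and 10.01 to 10.09 on the PMdr65 arrays, against 9.64 to 9.86 in UAS_control, 8.87 to 9.29 in WT_old and 9.37 to 9.59 in WT_new. The arrays of both mutants thus lay above all control arrays, and those of C17 and PMdr65 overlapped. With moody and Mdr65 included, the mean was 9.50 to 9.59 in C17 and 9.73 to 9.80 in PMdr65, against 9.74 to 9.95, 8.99 to 9.38 and 9.44 to 9.67 in UAS_control, WT_old and WT_new. The bicellular septate junction list was at 8.82 to 8.90 in C17 and 9.09 to 9.14 in PMdr65, against 8.60 to 8.86, 8.62 to 8.77 and 8.50 to 8.61 in UAS_control, WT_old and WT_new. Markers of other glia had means of 11.29 to 11.32 in C17 and 11.42 to 11.45 in PMdr65, against 10.96 to 11.33 on the control arrays (7 genes). Of these 7, limma called wrapper and drpr higher in PMdr65, beside 5.87% of all genes, and 0 in C17, beside 4.37%.

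Trachea and epidermis also make septate junctions with gliotactin, and both can cling to a dissected brain. The 9 measured tracheal markers had mean log2 levels of 5.28 to 5.42 in C17 and 5.24 to 5.29 in PMdr65, against 5.84 to 6.60 in UAS_control, 5.20 to 5.42 in WT_old and 5.35 to 6.47 in WT_new. Limma called 0 of the 9 in either mutant, also at an unadjusted p under 0.05 against all 3 control groups. Of all genes 5.87% were called higher and 3.18% lower in PMdr65, and 4.37% and 2.27% in C17. The mutant arrays had tracheal means within the range of the control arrays. The 9 epidermis and cuticle markers had means of 5.80 to 5.92 in C17 and 5.89 to 6.04 in PMdr65, against 6.51 to 7.15, 5.53 to 5.82 and 5.82 to 6.74 in UAS_control, WT_old and WT_new. Of these, limma called 1 higher in PMdr65 (beside 5.87% of all genes) and 0 in C17 (beside 4.37%). It was the dim pigment gene y, higher by 0.61 to 0.91 (limma, highest adjusted p = 0.0068). The defining epidermal factor gene grh had dim means of 2.98 in C17 and 2.99 in PMdr65, against 4.88, 2.67 and 3.72 in UAS_control, WT_old and WT_new.

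The control arrays with the highest tracheal and eye levels were UAS_control array 2 and WT_new array 3, and epidermal levels were highest on UAS_control arrays 2 and 3. UAS_control array 2 also had the highest Gli signal among the controls, 6.36, while WT_new array 3 had 4.95, within the range of its group. Of the 6 fat body markers, limma called Lsp2 higher in PMdr65 by 2.27 to 4.23 (highest adjusted p = 0.0017) and 0 in C17. The share of all genes called higher was 5.87% in PMdr65 and 4.37% in C17. Muscle markers were at 5.79 to 6.19 in C17 and 5.69 to 6.08 in PMdr65, against 9.73 at the highest in UAS_control, 5.61 to 6.09 in WT_old and 6.46 to 7.12 in WT_new. Of these 8 genes, limma called 1, Act79B, which fell by 1.54 to 3.64 in PMdr65 (highest adjusted p = 4.04e-04), and 0 in C17. The share of all genes called lower was 3.18% in PMdr65 and 2.27% in C17. The part of these tissues in the levels of Gli was not tested.

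**Figure D5:**
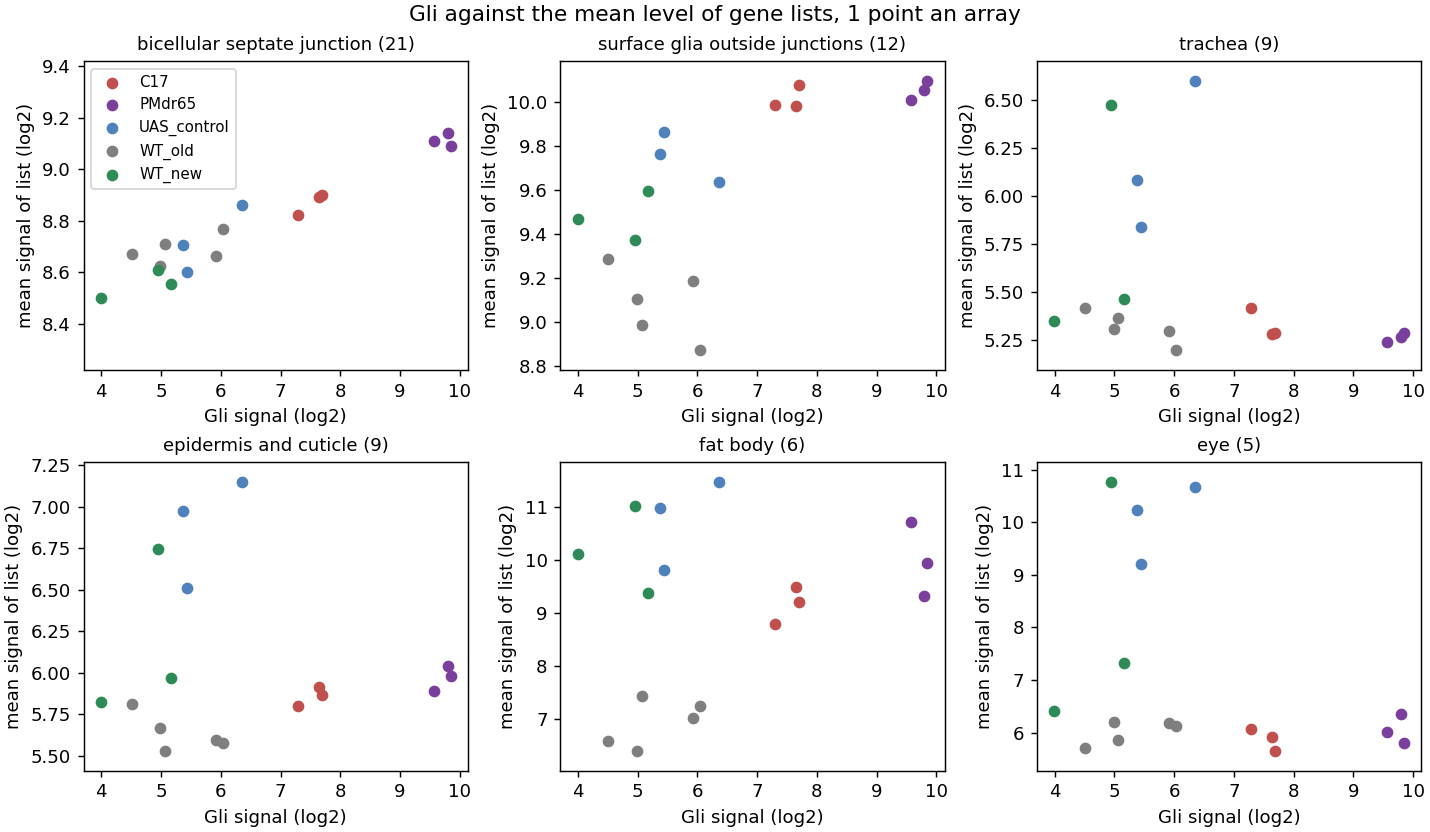
Log2 signal of Gli (horizontal axis) against the mean log2 signal of 6 gene lists (vertical axes, number of genes in brackets, surface glia without moody and Mdr65), with 1 point per array coloured by group. The bicellular septate junction mean is highest on the PMdr65 arrays (9.09 to 9.14), next on C17 arrays 2 and 3, while tracheal, epidermal and eye means are highest on UAS_control arrays and WT_new array 3.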

How the data were processed

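Per the labels, RNA was isolated with Ambion RNAqueous Micro columns, amplified with the NuGEN Ovation FFPE WTA kit and hybridised after biotin labelling. The deposited values are log2 signals made by the authors with RMA, per the file headers and the submitters' processing notes, which name affy, RMA and limma without versions. The unfiltered matrix held 18769 probe sets that were not controls (183 were). Of these, 13290 are in the series matrix and 5479 are not, and the sources used here state no rule for this choice. Values of shared probe sets differ by at most 0.005. The series matrix was taken as it is. Its arrays had medians of 7.86 to 7.99, and Pearson r within a group ran from 0.9742 to 0.9967. The number of arrays limits the precision.

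In the platform annotation 10243 probe sets had 1 symbol, 310 several and 2737 none, which gave 8938 genes, of which 840 had several probe sets, and the probe set with the highest mean stood for the gene. Gli had 1 probe set, which named no other gene. The annotation lists only probe sets of the series matrix, so those found only in the unfiltered matrix are unnamed here. The genome build is not given in the sources used here, so no position is printed, and only the order of gene starts in RefSeq was used to find neighbours. The gene IDs of 10188 probe sets matched RefSeq.

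The 17 arrays were fitted by group in R 4.3.3 with limma 3.58.1 (12 residual and 2.93 prior degrees of freedom), with Benjamini-Hochberg adjustment over all 13290 probe sets within a contrast. Standard errors of the Gli differences come from the 2 groups' own spread. The fit was tested on simulated data for PMdr65 against all 3 control groups over 13290 probe sets. It called 45 of 50 probe sets with a log2 change of 1, 46 of 50 with -1 and 50 of 50 with 2. With 0.5 it called 26 of 50, and of the unchanged ones 0 of 13090. The simulated noise was independent between probe sets and the control groups had equal means, unlike the real ones. These rates may therefore differ on the real arrays.

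Gli and all gene lists were chosen with earlier results of these data known. The text names Gli, moody, Mdr65, all tricellular and cholinesterase-like adhesion genes, and marker genes that span the groups. Also named are up to 6 called members of each other list per mutant by adjusted p. Of the neighbours it names the 2 nearest on either side and called ones. The 8 highest and 4 lowest r with Gli are among genes with group means spanning at least 1 log2 unit. Nrx-IV, LpR2, pck, Tsf2, crok, crim, dpp, Dad, dlg1, wrapper, drpr, y, grh, Lsp2, Act79B, CycE, CG18063, sand and the genes beside Gli in rank were named after their values were seen. Replicate numbers did not pair the arrays: of 30 same-numbered pairs across groups, 4 had correlated deviations above 0.1.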

Additional observations from a re-analysis of the deposited data

Results flagged for a closer look

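Within WT_old, 3 genes had 1 array far from the other 4, by the ratio of the gap to the range (critical value 0.71 for 5 arrays, which chance passes in about 1 of 20 groups, among 33 genes looked at). They were Glt with an array at 5.61 (ratio 0.881), the neighbour wek with an array at 6.95 (0.723) and CG10226 with an array at 8.14 (0.718). Gli itself had no such array.

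For 9 of 30 named genes the effect differed between the mutants, by limma's test of C17 minus PMdr65, which called 3.71% of all genes higher and 3.23% lower. Some of the 30 were named because they were called in a mutant. It was 2.17 for Nlg1, 0.36 for Nlg3 and 0.66 for CG3168, where the effect in C17 was the higher one. It was -0.36 for kune, -0.50 for Nrg, -0.69 for Lac, -0.65 for Ssk, -0.83 for Est-Q and -0.73 for CG10226, where the effect in C17 was the lower one.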

How the results depend on the processing

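The choices varied were the table (the unfiltered matrix, or without the dimmest 40% of probe sets) and the scaling (quantile normalization or median centring). Also varied were the fit (a trended prior, array weights, fewer groups, the replicate block) and the probe set (a gene's second brightest). Single arrays were left out in turn, and UAS_control array 2 and WT_new array 3 together. UAS_control arrays 1 and 3, also high in eye genes, stayed in when those 2 were left out. All 10 Gli differences kept their direction. Where the arrays of the groups did not overlap, as in every comparison with a mutant, leaving out arrays could not have reversed it. Over single omissions C17 exceeded UAS_control by 1.65 to 2.14, WT_old by 2.04 to 2.42 and WT_new by 2.49 to 3.07, and PMdr65 exceeded them by 3.84 to 4.33, 4.24 to 4.62 and 4.68 to 5.27, while C17 minus PMdr65 was -2.28 to -2.07. The 11 PMdr65 calls of bicellular genes became 9 to 12 with 1 array left out and 9 to 13 otherwise. The 4 in C17 became 2 to 4 with 1 array left out, 5 with the trended prior, array weights or without the dimmest probe sets, 3 with centring, only the groups compared or the 2 arrays left out, 2 in the unfiltered matrix or after quantile normalization and 1 with the replicate block, where cora had an adjusted p of 0.072 by limma. Polarity calls, 1 in each mutant, were 0 with the trended prior or without the dimmest probe sets and 3 with second probe sets, and over single omissions 0 to 1 in C17 and 0 to 3 in PMdr65. BMP, JNK and endocytosis calls were 1 in C17 with second probe sets, in place of 0, and stayed 0 over single omissions. In PMdr65 they were 2, in place of 1, with quantile normalization, the trended prior, array weights, only the groups compared, the replicate block, the 2 arrays left out or second probe sets, and 1 to 2 over single omissions. Cholinesterase-like calls, enzymes included, were 1 in C17, in place of 2, without the dimmest or with second probe sets, and 0 in PMdr65, in place of 1, without the dimmest. Neighbour calls in C17, 1 in the report, were 2 with centring, array weights or second probe sets, 0 with only the groups compared, the replicate block, no dim probe sets or the 2 arrays left out, and 0 to 2 over single omissions. In PMdr65, 2 in the report, they were 1 in the unfiltered matrix, with centring, only the groups compared or the 2 arrays left out, and 1 to 3 over single omissions. Over all genes, 391 were called higher and 203 lower in C17, and both directions together numbered 380 to 621 when arrays were left out, the lowest without C17 array 2. Of the 8 genes most like Gli, 2 stayed without PMdr65 and 3 by Spearman's rho. The causes were not tested. Of 1652 values of named genes under alternatives, 1569 kept their direction and side of the threshold, 72 lost a call, 9 gained one, 0 reversed and 2 moved. The low signal of Gli in the controls, near background, limits its folds. With 3 arrays a group, changes of 0.5 on the log2 scale were often missed on simulated data.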
